A study of Saccharomyces cerevisiae with 11 samples.

Results

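The comparison described here sets the last samples of 2 retentostats against the cultures they were set up to be compared with. The samples were chosen by their labels: the 2 arrays of retentostats after 22 days (growth rate 0.00063 per hour, an average over the culture) and the 3 arrays of chemostats at time 0 (0.025 per hour), 5 of the 11 arrays of the study. The other 6 come from retentostats at days 2, 9 and 16, taken to be the same pair, which the labels do not state outright. They enter the estimate of the spread between arrays. All cultures were of 1 strain of Saccharomyces cerevisiae, the prototrophic laboratory strain CEN.PK113-7D, grown without oxygen in synthetic medium with glucose as the limiting nutrient and an antifoaming agent. The genotype given is MATa MAL2-8c SUC2. The labels name no gene deletion and no drug, and the strain is 1 line, so that nothing here speaks of other strains. A chemostat is a stirred vessel in which fresh medium flows in at a fixed rate and culture leaves at the same rate, so that the cells grow as fast as they are washed out. A retentostat has the same inflow, but a filter in the outlet keeps the cells in, so that more and more cells share the same supply of glucose and growth slows almost to a stop. The culture ages with the growth rate: age, crowding and slow growth cannot be told apart between these groups. All levels are averages over a culture, in which fewer cells of a kind and less RNA per cell cannot be told apart.

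As background, yeast that grows slowly spends less on making ribosomes and amino acids and more on stress protection and storage, and cells that leave the cell cycle for lack of glucose turn on genes for using other carbon sources. Without oxygen yeast cannot make sterols or unsaturated fatty acids, since several enzymes of both pathways use molecular oxygen. The transcription factors Upc2 and Ecm22 turn on sterol genes when sterol is short, Hap1 senses haem, and Aft1 turns on iron uptake. Anaerobic cells also coat their wall with mannoproteins of the DAN, TIR and seripauperin (PAU) families.

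The values are array intensities after each array was scaled to the same median over the genes. Changes are log2 differences of day 22 minus chemostat with their standard errors (SE; n = 3 chemostats, n = 2 retentostats), and are therefore relative to the median gene. Adjusted p-values are those of limma with Benjamini-Hochberg adjustment over all 5595 genes tested, with a threshold of 0.05. The number of arrays limits the precision. The log2 levels of the 2 day 22 arrays correlated over genes with r = 0.983, and those of the chemostats with r between 0.983 and 0.992. Chemostat replicate 3 stood nearer to day 22 (r = 0.933 and 0.919) than replicates 1 and 2 did (r between 0.883 and 0.914). Actin control probe sets for the 5' and 3' ends of the transcript gave ratios of 0.796, 0.780 and 0.766 in the chemostats and of 0.571 and 0.341 at day 22, while the ratios of TBP were 0.548, 0.562 and 0.466 against 0.537 and 0.476. A low actin ratio, a sign of shortened RNA, therefore moved with the groups, and its part in the results was not tested beyond the alternatives given beside them.

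Among the 15 largest falls of nuclear protein-coding genes with a standard name between the chemostats and day 22 were genes of anaerobic wall proteins (PAU23, PAU15 and PAU3), of iron uptake (FTR1, FIT2 and SIT1) and of sterol and steroid metabolism (CYB5 and ATF2). Among the 15 largest rises were FBP1 of gluconeogenesis, SPG1 and HSP30 of stationary phase and stress and MF(ALPHA)1, a pheromone gene of the other mating type, and small non-coding RNAs such as SNR45 rose more than these. In all, 1024 genes rose (18.3% of those tested) and 1107 fell (19.8%), 38.1% in either direction. These percentages are the background for every count below. Where further counts of a gene list are given, most differed from the main count by more than 1.5 times. Those of sterol synthesis and of the seripauperins differed by less or not at all. The counts come from fits with 1 of the 5 arrays left out (numbered as the replicates) or with the deposited scaling. Others come from quantile normalization or from the actin ratio of the array as a covariate. Not every count that differed by more than 1.5 times is given, so a list without further counts is not thereby shown to be stable. At an unadjusted p under 0.05 there were 2704 genes (48.3%). The arrays of the groups did not overlap for 3755 genes (67.1%), of which 33.0% had day 22 above and 34.1% below. With the scaling the authors deposited, the median gene was 0.23 higher at day 22 and 1782 genes were higher against 605 lower (74.7% higher). All 1024 genes that rose and 605 of the 1107 that fell were called in the same direction under that scaling. In the main comparison the median change over all genes was −0.02.

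The size of the changes was moderate for most genes. A rise of at least 1 on the log2 scale was reached by 405 genes that passed (7.24%) and a fall of that size by 427 (7.63%). For a size of 2 the counts were 93 (1.66%) and 73 (1.3%). All 2131 genes that passed had the same sign in both day 22 arrays. Passing on the mean of these same arrays favours equal signs, so this is no separate evidence of agreement. The 2 sets of changes correlated over genes with r = 0.913, as the plot of the 2 day 22 arrays shows. Genes are not independent replicates, and both sets share the chemostats. Without day 22 replicate 2, the array of lowest actin ratio, 572 genes rose and 551 fell. With the actin ratio as a covariate in the fit, 156 rose and 144 fell. The ratio moved with the groups, so here and below this fit separates its part from that of day 22 poorly. A call lost in this fit decides nothing about the cause, which was not tested.

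**Figure D1:**
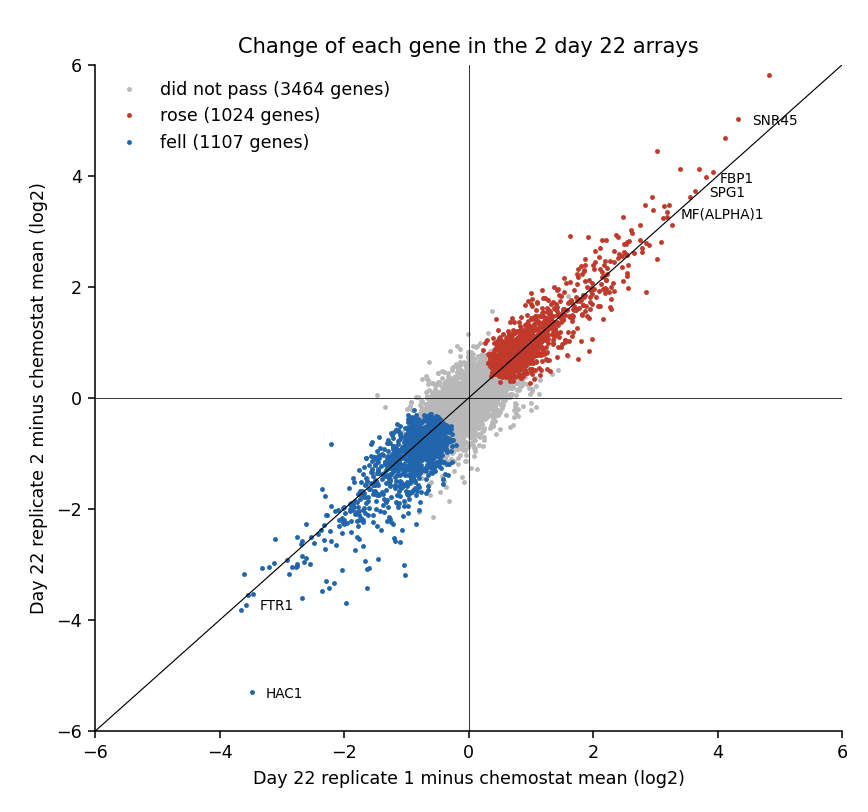
Change of each of the 5595 genes in day 22 replicate 1 (horizontal axis) and replicate 2 (vertical axis) against the mean of the 3 chemostats, in log2 units; red points rose, blue points fell and grey points did not pass. The 1024 and 1107 called genes lie in the upper right and lower left of the plot, and HAC1 lies furthest below the diagonal among the labelled genes.

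Among nuclear protein-coding genes FBP1 rose most. FBP1 encodes fructose bisphosphatase, the committing enzyme of gluconeogenesis, and its level was 20.7, 22.4 and 23.6 in the chemostats and 311 and 351 at day 22. The 2 groups lay far apart, with little spread inside either (change 3.89 ± 0.18, adjusted p = 1.8e-06). SPG1, a gene named for its need in stationary phase, came next among those with a standard name, with levels of 50.9, 25.9 and 85.9 against 603 and 638. Its chemostat values differed among themselves, but both day 22 values were far above the highest of them (3.68 ± 0.44, adjusted p = 0.00021). HSP30, a stress protein of the plasma membrane, stood at 1214, 702 and 1409.8 in the chemostats and at 9095 and 7494 at day 22 (2.96 ± 0.33, adjusted p = 0.00016). The day 22 values lay above every chemostat, and the day 9 values (18711 and 9354) higher still.

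The other large rises covered several functions. AAD10, a homologue of fungal aryl-alcohol dehydrogenases, rose from 103, 88.6 and 96.4 to 592 and 754 (2.80 ± 0.22, adjusted p = 1.8e-05). GIT1, the permease that takes up glycerophosphoinositol, rose by 2.79 ± 0.22, and TPO2, an exporter of polyamines, by 2.70 ± 0.22. RNR3, the minor large subunit of ribonucleotide reductase that DNA damage induces, read 292, 244 and 368 against 2429.6 and 1688 (2.77 ± 0.23, adjusted p = 2.1e-05). SHH3, a mitochondrial homologue of a succinate dehydrogenase subunit (2.56 ± 0.31), COA2, an assembly factor of cytochrome oxidase (2.45 ± 0.32), OPT2, an oligopeptide transporter (2.22 ± 0.22), and PRM3, a nuclear envelope protein of mating cells (2.32 ± 0.20), also rose. So did BOP2 (2.51 ± 0.21) and MOR1 (2.49 ± 0.19), for which no role is given here. PUL3, a transporter of a siderophore, was at or near 12, the floor set for dim values, in all 3 chemostats, and read 63.4 and 89.6 at day 22 (2.65 ± 0.47). In each of these genes every day 22 value was above every chemostat value, as the naming rule required.

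**Figure D2:**
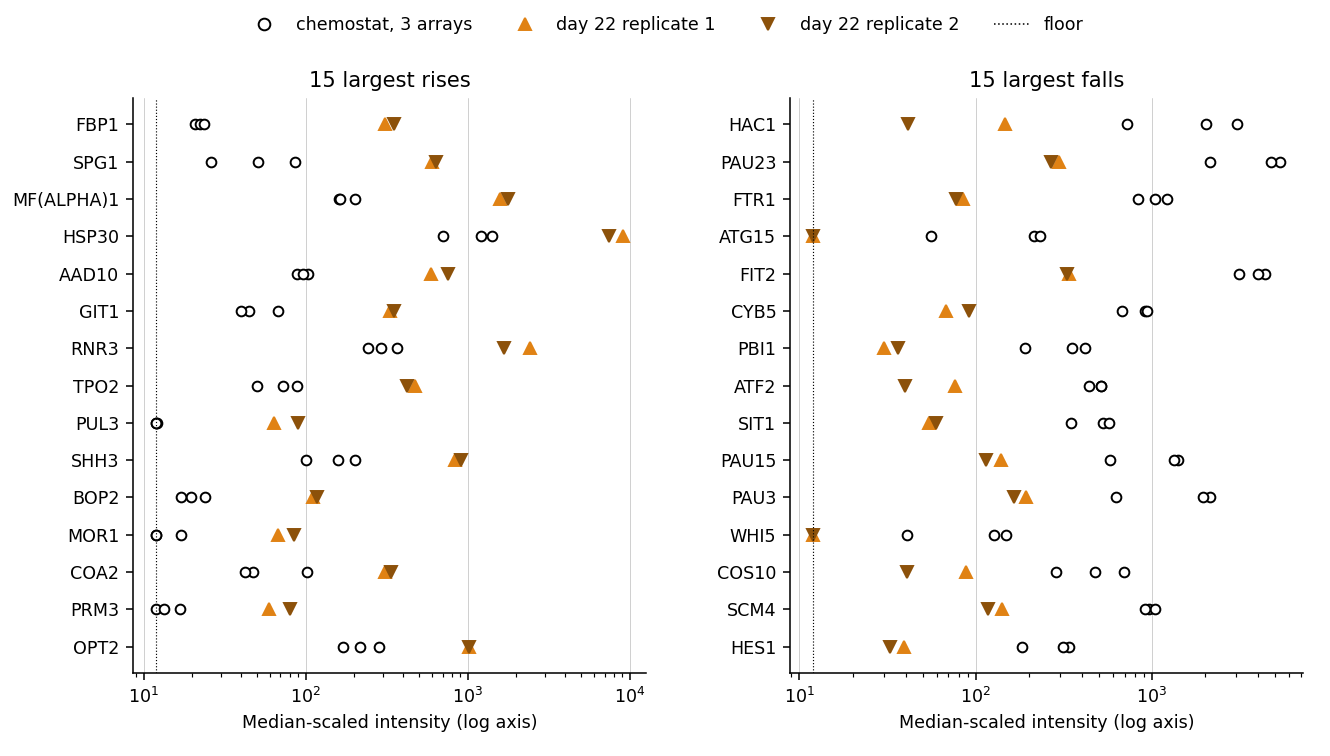
Median-scaled intensity on a log axis of the 15 nuclear protein-coding genes with a standard name that rose most (left) and fell most (right), by array: open circles are the 3 chemostats, triangles the 2 day 22 arrays, and the dotted line is the floor of 12. The day 22 values of FBP1 (311 and 351) stand clear of the chemostats, while HAC1 and ATG15 show the widest spread among the falls.

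The largest fitted fall was that of HAC1, the transcription factor of the unfolded protein response. Its level was 2023, 3033 and 719 in the chemostats and 147 and 41.4 at day 22, so that both groups were spread over several-fold although they did not overlap. The change was −4.40 ± 1.06, adjusted p = 0.0088, a call lost without day 22 replicate 2, adjusted p = 0.11, and 4 of its 5 probe sets had the same sign. ATG15, a vacuolar lipase, was at the floor in both day 22 arrays and read 215, 231 and 55.8 in the chemostats, which makes it at least 11.7-fold lower than the chemostat mean (adjusted p = 0.024; a call lost without chemostat replicate 1, chemostat replicate 2, day 22 replicate 1 or day 22 replicate 2, adjusted p up to 0.12). WHI5, the inhibitor of cell cycle entry, was likewise at the floor at day 22 and read 126, 148 and 40.7 before, at least 7.61-fold lower (adjusted p = 0.014, a call lost without day 22 replicate 1 or day 22 replicate 2, adjusted p up to 0.088). In all 3 genes chemostat replicate 3 was the lowest of the chemostats. Outside the groups described next, PBI1 (−3.20 ± 0.29), COS10 (−2.92 ± 0.46) and SCM4 (−2.91 ± 0.24) were also among the 15 largest falls, and no role is given here for them.

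Sterol synthesis fell almost throughout. Of the 26 genes of the pathway 24 fell and 0 rose, against 19.8% falls over all genes, and the median change was −1.75. In the mevalonate part, which makes the isoprenoid units, 7 of 9 genes fell, and in the part from squalene to ergosterol, where oxygen is used, all 17 fell. The count of falls was 24 without day 22 replicate 2 and 18 with the actin ratio as a covariate. The 2 genes of the pathway that did not pass were both of the mevalonate part.

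**Figure D3:**
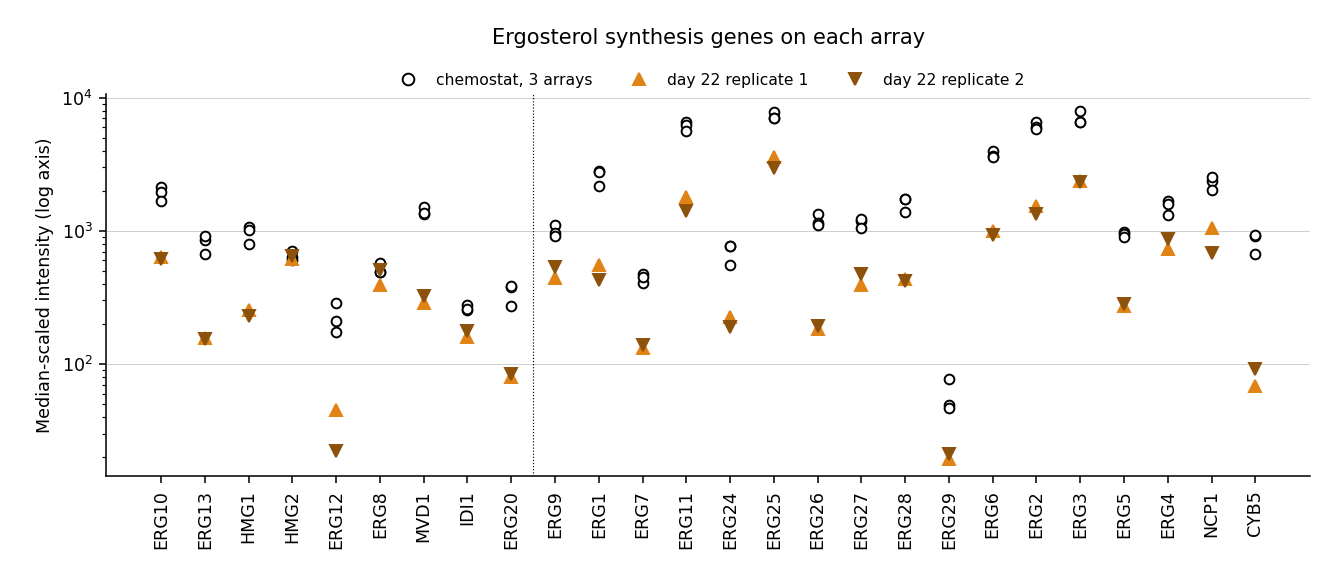
Median-scaled intensity on a log axis of the 26 ergosterol synthesis genes, with the mevalonate part left and the steps from squalene right of the dotted line; open circles are the 3 chemostats and triangles the 2 day 22 arrays. Day 22 values lie below the chemostats for all 17 genes of the right part, by the most for CYB5.

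CYB5, cytochrome b5, an electron donor in sterol and lipid synthesis, fell most in the pathway. It read 916, 933 and 673 in the chemostats and 68.2 and 92.0 at day 22 (−3.39 ± 0.24, adjusted p = 1e-05). ERG12, mevalonate kinase, went from 212, 285 and 175 to 44.9 and 22.4 (−2.79 ± 0.32, adjusted p = 0.00018), and its 4 probe sets had the same sign. ERG26, a decarboxylase of the demethylation steps, read 1340.3, 1154 and 1100.5 against 185 and 193 (−2.66 ± 0.16, adjusted p = 8.8e-06). ERG1, the squalene epoxidase that uses oxygen, read 2812, 2789.8 and 2187 against 553 and 431 (−2.40 ± 0.22, adjusted p = 4.1e-05). None of these 4 overlapped between the groups, as the naming rule required and as held for 67.1% of all genes. Against the same chemostats, the median of the pathway was −0.29 after 2 days, −1.17 after 9 and −1.54 after 16, before −1.75 at day 22.

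Genes that import, esterify and move sterols fell in part. Of 22, 1 rose and 10 fell. Falls numbered 6 without day 22 array 2 and 4 with the actin covariate. ATF2, an acetyltransferase that acts on alcohols and steroids, read 511, 514 and 439 and then 76.3 and 39.8 (−3.14 ± 0.36, adjusted p = 0.00018). HES1 and OSH6, both homologues of oxysterol-binding proteins, fell by 2.90 ± 0.29 and 2.09 ± 0.20. The 2 related regulators went opposite ways. UPC2, the activator of sterol genes and of anaerobic uptake, read 145, 186 and 105 in the chemostats and 37.1 and 46.1 at day 22 (−1.77 ± 0.24, adjusted p = 0.00041), while ECM22 read 301, 343 and 367 against 529.8 and 698 (0.85 ± 0.17, adjusted p = 0.0035). HAP1, the haem-responsive activator, fell from 2375, 2161 and 2269.5 to 941 and 819 (−1.37 ± 0.22, adjusted p = 0.0012). The repressor gene ROX1 did not pass (−0.40 ± 0.23), and MOT3 was at the floor in all 5 arrays.

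Fatty acid synthesis showed the same direction, with 11 of 13 genes lower and 1 higher (median −1.12). FAS1 and FAS2, the subunits of fatty acid synthase, fell together. FAS1 read 1885, 1943 and 1330.5 against 509 and 589.5 (−1.63 ± 0.19, adjusted p = 0.00021), with 8 probe sets of 1 sign, and FAS2 fell by 1.38 ± 0.20, with 7 of 8 probe sets of that sign. The elongases ELO2 and ELO3, which make very long chains, changed by −1.49 ± 0.23 and −1.52 ± 0.27. The rise was that of FAA1, an acyl-CoA synthetase that activates imported fatty acids, from 34.9, 24.3 and 46.9 to 91.7 and 75.5 (1.28 ± 0.25, adjusted p = 0.003). Its day 9 values, 19.4 and 21.7, lay below all 3 chemostats, so that its course over time was not monotonic. Falls of fatty acid genes numbered 6 without day 22 array 2, 7 without chemostat array 2, 7 with the deposited scaling and 2 with the actin covariate.

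The wall proteins of anaerobic cells fell as a group: 15 of 16 passed, all downward, and the median was −2.22. PAU23, which fell most, read 5325, 4715 and 2132 in the chemostats and 297 and 266 at day 22 (−3.74 ± 0.40, adjusted p = 0.00011). The family of seripauperins had 10 measured members, PAU3, PAU4, PAU7, PAU10, PAU13, PAU15, PAU16, PAU17, PAU19 and PAU23. All 10 fell, by 1.89 (PAU7) to 3.74 on the log2 scale, 7 of them also with the actin covariate. Chemostat replicate 3 was the lowest chemostat for each of them, for example 623 for PAU3 against 2141 and 1945 in the other two, but was still above day 22 (193 and 165). The family is of near-identical copies, and a probe set may report more than the gene it is named for, so that single members are uncertain.

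Of the DAN and TIR genes 6 of 7 fell, counting PAU23, which is also known as DAN2, and 3 with the actin covariate. DAN1, a mannoprotein made only without oxygen, read 7792, 7565 and 6559 against 1803 and 1518 (−2.14 ± 0.20, adjusted p = 5.5e-05). TIR1 did not pass and its groups overlapped, with 9399.6, 7585 and 11046 in the chemostats and 12098 and 6574 at day 22. Among the oxygen-linked isoform pairs, CYC7, the minor cytochrome c, rose from 313, 388 and 407 to 1287 and 1897 (2.09 ± 0.33, adjusted p = 0.0011). HYP2, the translation factor eIF5A made with oxygen, read 5179, 4901 and 5089.6 against 944 and 925 (−2.44 ± 0.17, adjusted p = 1e-05), whereas its anaerobic twin ANB1 read 5525, 5219 and 5286 against 4617 and 4416 and did not pass (−0.24 ± 0.14, adjusted p = 0.2). These 2 genes are nearly identical, and their signals may be shared. HEM13, the oxygen-using coproporphyrinogen oxidase of haem synthesis, fell by 1.32 ± 0.24.

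Iron uptake genes fell in part, FTR1, FIT2 and SIT1 by more than 8-fold. FTR1, the iron permease, read 1042, 1219 and 832 in the chemostats and 84.9 and 76.9 at day 22 (−3.66 ± 0.20, adjusted p = 3.7e-06). FIT2, a wall mannoprotein that holds siderophores, read 4350.0, 3997 and 3110.3 against 339.9 and 328 (−3.50 ± 0.27, adjusted p = 1.6e-05). SIT1, a siderophore transporter, read 530.5, 573 and 348 against 54.1 and 59.8 (−3.06 ± 0.30, adjusted p = 6.7e-05). All 3 were already as low at day 9, where FTR1 read 68.4 and 71.6 and FIT2 303 and 222. FIT3 fell by 2.83 ± 0.41, with day 22 values of 1119.5 and 494 that differed more from each other.

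Of 29 iron genes 4 rose and 9 fell (median −0.40). In the siderophore branch 4 of 7 fell, and in the reductive branch 3 of 13 fell and 3 rose. The rises were FRE3, FRE4, FET5 and AFT2. Of these FRE3 (a call lost without day 22 replicate 2, adjusted p = 0.1), FRE4 (a call lost without chemostat replicate 1, chemostat replicate 2, day 2 replicate 1, day 2 replicate 2, day 16 replicate 1, day 16 replicate 2, day 22 replicate 1 or day 22 replicate 2, adjusted p up to 0.17) and FET5 (a call lost without chemostat replicate 1, chemostat replicate 2, day 22 replicate 1 or day 22 replicate 2, adjusted p up to 0.16) depended on single arrays. Beside FTR1, its partner FET3, the iron oxidase, fell, from 489.8, 468 and 263 to 67.9 and 68.9 (−2.52 ± 0.26, adjusted p = 9.4e-05). FRE5, a putative reductase, was at the floor in both day 22 arrays and read 43.8, 51.0 and 40.7 before, at least 3.75-fold lower (adjusted p = 2.2e-05). The 2 iron regulators differed in direction: AFT1 read 277, 289 and 227 against 126 and 110.0 (−1.16 ± 0.16, adjusted p = 0.00051), and AFT2 read 42.2, 41.8 and 37.5 against 78.2 and 74.5 (0.92 ± 0.18, adjusted p = 0.0034). Falls of iron genes numbered 14 without chemostat array 3 and 5 with the actin covariate, and rises 2 without day 22 array 1, chemostat array 1 or chemostat array 2, 1 without day 22 array 2, 8 with the deposited scaling and 0 with the actin covariate.

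The zinc list had 1 rise and 6 falls among 11 genes, and falls numbered 2 with the actin covariate. All 4 members of the IZH family, membrane proteins tied to zinc and lipid homeostasis, fell. IZH4 read 1030.2, 980.0 and 876 against 111 and 165 (−2.82 ± 0.27, adjusted p = 5.5e-05), and IZH3, IZH1 and IZH2 changed by −1.38 ± 0.21, −1.17 ± 0.15 and −1.13 ± 0.18. ZPS1, a surface protein induced by low zinc, rose from 145, 148 and 150.0 to 306 and 319 (1.08 ± 0.13, adjusted p = 0.00024). Its chemostat values were nearly equal, and both day 22 values lay at about 2 times that level.

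In carbon metabolism, genes for making glucose rose while several of acetate formation and use fell. Of 5 genes of gluconeogenesis and the glyoxylate cycle 4 rose. Beside FBP1, PCK1, the carboxykinase that starts gluconeogenesis, read 893, 864 and 859 against 2279 and 2643 (1.49 ± 0.20, adjusted p = 0.00035). MLS1, malate synthase of the glyoxylate cycle, read 49.7, 47.9 and 44.1 against 135 and 127 (1.47 ± 0.22, adjusted p = 0.00071). Their chemostat values were tight and the groups stood well apart. SIP4, an activator of such genes, rose from low levels, 15.3, 22.7 and 31.3 to 50.4 and 40.9 (1.03 ± 0.27, adjusted p = 0.012; a call lost without day 22 replicate 1, adjusted p = 0.093), while CAT8 (0.35 ± 0.41) and ADR1 (0.15 ± 0.26) did not pass. In the group for using acetate, lactate and other carbon 2 of 13 genes rose and 5 fell. SFC1, a mitochondrial carrier for succinate and fumarate, rose there by 1.16 ± 0.26, and GUT2, the mitochondrial glycerol phosphate dehydrogenase, fell by 1.03 ± 0.21. Falls of this group numbered 2 without day 22 array 2, 3 without chemostat array 3, 3 with the deposited scaling and 1 with the actin covariate, and rises 1 without day 22 array 1, chemostat array 1, chemostat array 2 or chemostat array 3 and 1 with quantile normalization or the actin covariate. Rises of gluconeogenesis and the glyoxylate cycle numbered 1 with the actin covariate.

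Several aldehyde and acetate enzymes fell. ALD4, the mitochondrial aldehyde dehydrogenase, read 3087, 3045 and 3139 in the chemostats and 953 and 766 at day 22 (−1.85 ± 0.22, adjusted p = 0.0002). ALD6, its cytosolic counterpart, read 2288, 2439 and 1769 against 618 and 581 (−1.84 ± 0.21, adjusted p = 0.00018), although its second probe set had the opposite sign. ACS2, the acetyl-CoA synthetase of growing cells, read 2029.7, 1858 and 1559 against 545 and 549 (−1.72 ± 0.16, adjusted p = 4.7e-05), and ALD5 fell by 1.95 ± 0.23. ADH2, the alcohol dehydrogenase that oxidises ethanol, rose by 0.98 ± 0.25 (a call lost without day 22 replicate 1 or day 22 replicate 2, adjusted p up to 0.067). Of the fermentation branch 3 genes rose and 5 fell among 13 (median −0.07), and of glycerol formation 2 of 4 fell. Glycolysis proper had 0 rises and 4 falls among 16 genes (median −0.26). Falls of glycolysis genes numbered 2 without day 22 array 1, chemostat array 2 or chemostat array 3, 0 without day 22 array 2, 1 without chemostat array 1, 1 with the deposited scaling, 2 with quantile normalization and 0 with the actin covariate. Rises of fermentation genes numbered 1 without day 22 array 1 or day 22 array 2 and 1 with the actin covariate, and falls 2 with the actin covariate. Falls of glycerol formation numbered 1 without day 22 array 2, chemostat array 1 or chemostat array 2 and 0 with the actin covariate. HXK2, the main hexokinase, was the largest fall there, from 1615, 1640.1 and 995 to 437 and 401 (−1.72 ± 0.38, adjusted p = 0.0054, a call lost without day 22 replicate 2, adjusted p = 0.053).

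Among hexose transporters 3 of 11 rose and 0 fell. Rises numbered 1 with the actin covariate, and falls 1 without chemostat array 3 or with quantile normalization. HXT5, a transporter expressed when growth is slow, went from 621, 389 and 788 to 2034 and 1643 (1.67 ± 0.29, adjusted p = 0.0017). HXT1, a low-affinity transporter of glucose-rich cells, read 19.4, 13.0 and 15.9 against 46.0 and 70.6 (1.84 ± 0.31, adjusted p = 0.0013), and GAL2, the galactose permease, rose by 1.27 ± 0.17. Glycogen genes rose in 7 of 12 cases and fell in 0, where rises numbered 3 without day 22 array 1, 4 without day 22 array 2, chemostat array 1 or chemostat array 2 and 1 with the actin covariate. SGA1, a glucoamylase that breaks down glycogen, rose from 65.5, 55.7 and 92.7 to 323 and 302 (2.17 ± 0.23, adjusted p = 0.00011), GLG2, a primer of glycogen synthesis, by 1.99 ± 0.24 and PIG2, a regulator of that synthesis, by 1.46 ± 0.22. Of the 7 trehalose genes 0 rose and 1 fell, against 4 rises with the deposited scaling. Falls numbered 0 with any 1 chemostat array left out, with the deposited scaling or with the actin covariate. The fall was also not called with either day 22 array left out. PGM1, the minor phosphoglucomutase, fell from 210.4, 165 and 170.1 to 57.2 and 61.3 (−1.61 ± 0.23, adjusted p = 0.00053).

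Nuclear genes for mitochondrial proteins rose in 2 lists, in cultures without oxygen. Of 38 respiratory chain genes encoded in the nucleus 18 rose and 0 fell (median 0.53), 13 of 23 in complexes II to IV with cytochrome c and 5 of 15 in the ATP synthase. COX9, a subunit of cytochrome oxidase, read 1373, 1578 and 2118 against 3474 and 3456 (1.06 ± 0.20, adjusted p = 0.0028). NDE2, an external NADH dehydrogenase, read 155, 115 and 189 against 403 and 371 (1.37 ± 0.30, adjusted p = 0.0049). QCR8 rose by 1.70 ± 0.26, but its second probe set had the opposite sign. Mitochondrial ribosomal proteins rose in 28 of 64 cases and fell in 0 (median 0.47). MRPL33 rose by 1.41 ± 0.30 and MRPL37 by 1.32 ± 0.19, with day 22 values of 1422 and 1368 above chemostat values of 547, 458 and 697. Rises of respiratory genes numbered 6 without day 22 array 1, 5 without day 22 array 2, 9 without chemostat array 1 or chemostat array 2, 29 with the deposited scaling, 30 with quantile normalization and 0 with the actin covariate. Rises of mitochondrial ribosomal proteins numbered 10 without day 22 array 2, 16 without chemostat array 2, 46 with the deposited scaling and 0 with the actin covariate. The tricarboxylic acid cycle had 2 rises and 3 falls among 19 genes, both shares below those of all genes, and rises numbered 1 without day 22 array 1, chemostat array 1, chemostat array 2 or chemostat array 3, 6 with the deposited scaling, 8 with quantile normalization and 0 with the actin covariate and falls 1 without day 22 array 2 and 0 with the actin covariate. SDH3, a membrane subunit of succinate dehydrogenase, rose by 1.36 ± 0.24, and PYC2, a pyruvate carboxylase, fell by 0.88 ± 0.15.

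Genes of stress and of stationary phase rose in part of each list. Of 28 heat shock and chaperone genes 10 rose and 2 fell, of 24 general stress genes 11 rose and 2 fell, and of 20 stationary phase genes 9 rose and 1 fell. The medians were 0.34, 0.59 and 0.52. SSA3, an Hsp70 chaperone induced by stress, read 378, 338 and 364 and then 1369 and 979 (1.69 ± 0.24, adjusted p = 0.00056). SSA2, the abundant Hsp70 of growing cells, went from 5034, 4708 and 3756 to 1724 and 1349.7 (−1.55 ± 0.21, adjusted p = 0.00046), the opposite way. CPR6 and BTN2, a co-chaperone and a protein that collects misfolded proteins, rose by 1.13 ± 0.20 and 1.24 ± 0.18. Rises of the heat shock list numbered 17 with the deposited scaling and 3 with the actin covariate. Those of the general stress list numbered 7 without day 22 array 1 or day 22 array 2, 17 with the deposited scaling and 1 with the actin covariate, and those of the stationary phase list 4 without day 22 array 2 and 1 with the actin covariate.

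In the general stress list FMP16, a mitochondrial protein, rose from 790.4, 593 and 717 to 2801 and 2711 (1.99 ± 0.27, adjusted p = 0.00039), SDP1, a phosphatase of a stress kinase, by 1.67 ± 0.17, NQM1, a transaldolase, by 1.77 ± 0.28 and GAD1, glutamate decarboxylase, by 1.67 ± 0.31. In the stationary phase list SIP18 and GRE1, a pair of related hydrophilins, rose by 2.07 ± 0.35 and 1.97 ± 0.38 and SPG4 by 1.52 ± 0.30. RGI2, a respiration-linked gene, fell from 1574, 1428 and 2070.2 to 344 and 385 (−2.20 ± 0.29, adjusted p = 0.00038). FMP16 read 6098 and 3067 at day 9, and the median of the general stress list was 0.54 after 2 days, 1.09 after 9 and 0.84 after 16, before 0.59 at day 22 against the shared chemostats. These later differences of the list were not tested. Of the stress activators MSN4 (0.29 ± 0.16), HSF1 (−0.09 ± 0.21) and GIS1 (−0.13 ± 0.23) did not pass.

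**Figure D4:**
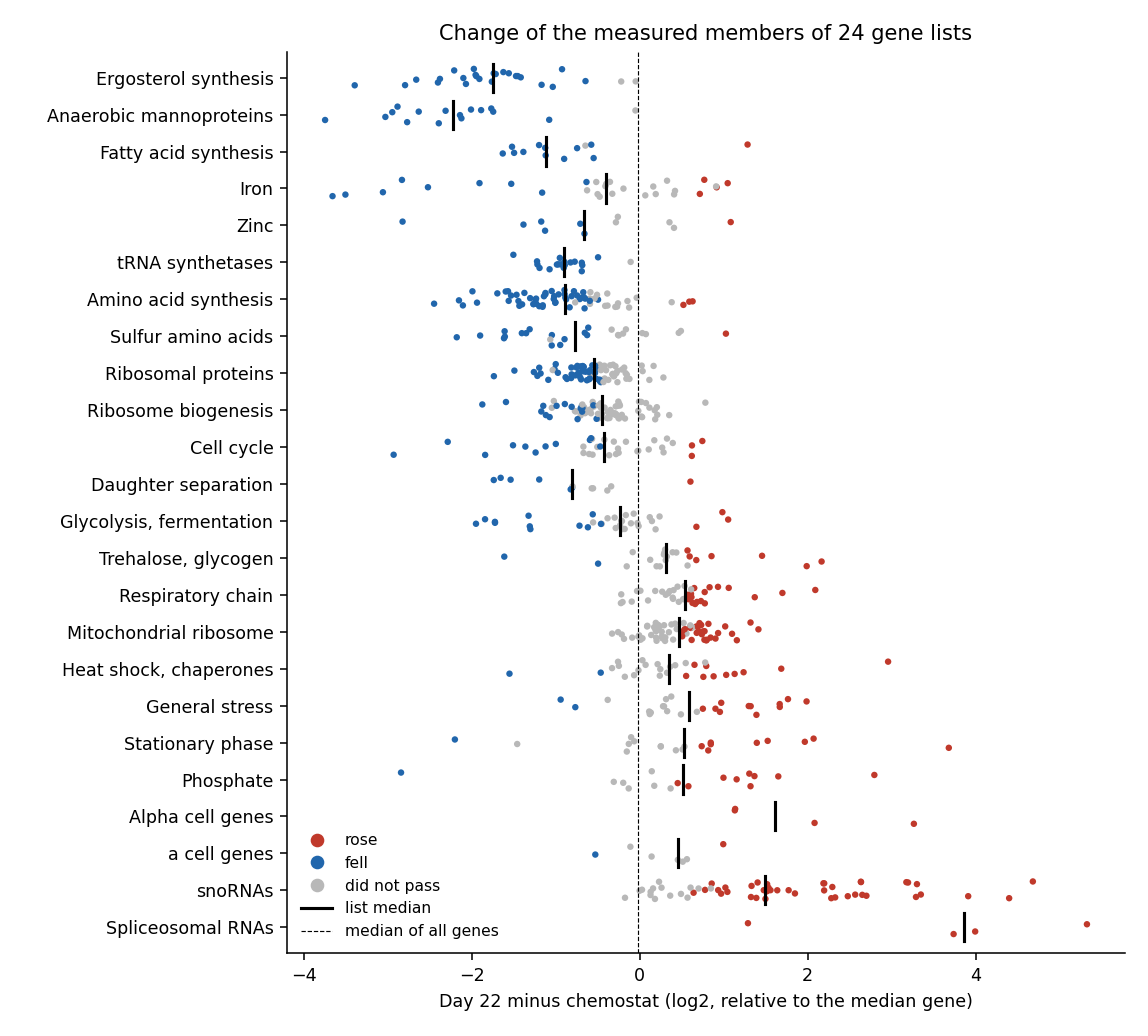
Change at day 22 against the chemostat (log2, relative to the median gene) of the measured members of 24 gene lists, 1 point a gene; red rose, blue fell, grey did not pass, a black bar is the list median and the dashed line the median of all genes. Ergosterol synthesis (median −1.75) and anaerobic mannoproteins (−2.22) lie furthest left, and spliceosomal RNAs (3.87) furthest right.

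Defence against oxidants was divided, with 10 rises and 5 falls among 33 genes. Rises there numbered 6 without day 22 array 1 or chemostat array 1, 3 without day 22 array 2, 18 with the deposited scaling and 0 with the actin covariate, and falls 2 without day 22 array 2, 3 with the deposited scaling and 1 with the actin covariate. GPX1, a phospholipid peroxidase, read 359, 261 and 310.3 against 1333 and 1543 (2.22 ± 0.28, adjusted p = 0.00028). OYE3, an NADPH oxidoreductase, rose by 1.58 ± 0.19 and MXR2, the mitochondrial methionine sulfoxide reductase, by 1.19 ± 0.18. TSA2, a peroxiredoxin, fell from 589, 497 and 348 to 148 and 126 (−1.77 ± 0.28, adjusted p = 0.001), and GSH2, glutathione synthetase, fell by 0.88 ± 0.14. The regulator YAP1 rose by 0.62 ± 0.17 (a call lost without chemostat replicate 1 or day 22 replicate 2, adjusted p up to 0.12). All 4 measured aryl-alcohol dehydrogenase homologues rose: AAD10 as above, AAD6 by 1.17 ± 0.21, AAD4 by 1.01 ± 0.14 and AAD14 by 0.47 ± 0.17 (a call lost without chemostat replicate 1, chemostat replicate 2, chemostat replicate 3, day 16 replicate 1, day 16 replicate 2, day 22 replicate 1 or day 22 replicate 2, adjusted p up to 0.15). With the actin covariate 2 of these 4 genes were called. AAD6 was at or near the floor in the chemostats.

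Genes of autophagy, the delivery of cell parts to the vacuole, rose in 12 of 36 cases and fell in 4 (median 0.40). ATG39, a receptor for taking up pieces of nucleus, read 63.2, 56.9 and 84.6 in the chemostats and 198 and 281 at day 22 (1.81 ± 0.21, adjusted p = 0.0002). ATG45 rose by 1.78 ± 0.18, ATG33, needed for mitophagy, by 1.43 ± 0.22 and ATG1, the kinase that starts autophagy, by 1.28 ± 0.18. ATG38 fell by 1.29 ± 0.21 and ATG13, a partner of Atg1, by 0.75 ± 0.15. Vacuolar proteases had 1 rise and 1 fall among 10. Their rises numbered 0 without chemostat array 1 or chemostat array 2, 4 with the deposited scaling and 0 with the actin covariate. The rise was also not called with either day 22 array left out. Their falls numbered 0 without chemostat array 2, with the deposited scaling or with the actin covariate. The fall was also not called without day 22 array 2. Of 34 proteasome genes 2 rose (rises numbered 1 without day 22 array 2, 14 with the deposited scaling, 7 with quantile normalization and 0 with the actin covariate), RPN13 (0.63 ± 0.16; a call lost without day 22 replicate 2, adjusted p = 0.092) and RPN4, the activator of the set (0.77 ± 0.16). Rises of the autophagy list numbered 7 without day 22 array 2, 23 with the deposited scaling and 2 with the actin covariate, and falls 2 without day 22 array 1, day 22 array 2, chemostat array 1 or chemostat array 2 and 0 with the actin covariate.

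Among lists of the growth machinery, falls were frequent for ribosomal proteins, translation factors, charging enzymes and amino acid synthesis. Cytosolic ribosomal proteins fell in 46 of 80 cases and rose in 0 (median −0.55), and falls numbered 25 without day 22 array 1, 10 without day 22 array 2, 28 without chemostat array 1, 26 without chemostat array 2, 29 without chemostat array 3, 13 with the deposited scaling, 17 with quantile normalization and 0 with the actin covariate. RPP2A, a protein of the ribosomal stalk, read 2499.7, 3354 and 2028 against 797 and 748 (−1.74 ± 0.30, adjusted p = 0.0015), and RPL7A fell by 1.49 ± 0.25 with 2 of 3 probe sets of that sign. Many ribosomal protein genes come in near-identical pairs, so that the signal of 1 gene is uncertain. Ribosome assembly factors fell in 16 of 73 cases (21.9%, near the 19.8% of all genes) and rose in 0 (median −0.45), and falls numbered 6 without day 22 array 1, 7 without day 22 array 2, 10 without chemostat array 2, 7 with the deposited scaling and 1 with the actin covariate. NOP58, a core protein of small nucleolar ribonucleoproteins, read 1801, 2067 and 1634 against 575 and 432 (−1.87 ± 0.30, adjusted p = 0.0011). UTP6 and UTP18, of the small subunit processome, fell by 1.17 ± 0.22 and 1.15 ± 0.24.

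RNA polymerase I, which makes ribosomal RNA, had 9 falls and 1 rise among 16 genes, and RNA polymerase III 2 falls and 3 rises among 19. Falls of polymerase I genes numbered 4 without day 22 array 1 or day 22 array 2 and 0 with the actin covariate, and rises of polymerase III genes 0 without day 22 array 1 or day 22 array 2 and 0 with the actin covariate. RRN5, an activator of polymerase I, fell from 252, 238 and 148 to 61.2 and 35.5 (−2.15 ± 0.40, adjusted p = 0.0021), and RPA49, a subunit, by 1.25 ± 0.32 (a call lost without day 22 replicate 1 or day 22 replicate 2, adjusted p up to 0.074). BDP1, an initiation factor of polymerase III, rose by 1.09 ± 0.28 (a call lost without day 22 replicate 1 or day 22 replicate 2, adjusted p up to 0.092). The regulators of ribosomal protein genes gave 1 call. IFH1 read 158, 168 and 139 against 84.2 and 82.0 (−0.90 ± 0.18, adjusted p = 0.0031), while FHL1 (−0.56 ± 0.21) and SFP1 (−0.00 ± 0.18) did not pass.

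Enzymes that charge transfer RNAs fell in 18 of 19 cases, with a median of −0.90. TYS1, for tyrosine, read 424, 492 and 452 against 164 and 157 (−1.50 ± 0.19, adjusted p = 0.00032). CDC60, for leucine, read 529, 522 and 489.6 against 224 and 216 (−1.22 ± 0.15, adjusted p = 0.00026), and SES1 and DED81, for serine and asparagine, fell by 1.22 ± 0.24 and 1.19 ± 0.22. Falls of these enzymes numbered 9 without day 22 array 2, 11 with the deposited scaling and 2 with the actin covariate. Translation factors fell in 14 of 29 cases and rose in 0, and falls numbered 6 without day 22 array 2, 9 with the deposited scaling and 3 with the actin covariate. TEF4, a subunit of elongation factor eEF1B, read 785, 969.8 and 826 against 216 and 203 (−2.03 ± 0.23, adjusted p = 0.00018), and TIF4631, the scaffold eIF4G, fell by 1.32 ± 0.15.

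Amino acid synthesis fell broadly, in 49 of 68 cases against 3 rises, with a median of −0.89. The branched-chain branch fell in 10 of 11 cases, the serine, threonine and proline group in 15 of 18, arginine, lysine and glutamate in 11 of 18 and the aromatic and histidine group in 13 of 21. ASN1, asparagine synthetase, read 1432, 1640.2 and 873 against 252 and 215 (−2.45 ± 0.28, adjusted p = 0.00017). GDH1, the main glutamate dehydrogenase of ammonium assimilation, read 2979.8, 3309.7 and 2096 against 787 and 485 (−2.15 ± 0.27, adjusted p = 0.00026). HIS1 and HIS7, of histidine synthesis, fell by 2.10 ± 0.30 and 1.99 ± 0.31. GCN4, the activator of these genes, which is controlled mainly at translation, did not pass (−0.27 ± 0.17). Falls of the whole list numbered 6 with the actin covariate, and rises 0 without day 22 array 1, chemostat array 1 or chemostat array 2, 1 without day 22 array 2 and 0 with the actin covariate.

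Sulfur assimilation and its amino acids fell in 15 of 26 cases and rose in 1, and falls numbered 8 without day 22 array 2 and 1 with the actin covariate. SAM2, which makes S-adenosylmethionine, read 2138, 2149.6 and 1788 against 565 and 518 (−1.90 ± 0.25, adjusted p = 0.00033). SUL2, a sulfate permease, and MET16, an enzyme of sulfate reduction, fell by 1.61 ± 0.25 and 1.61 ± 0.21. CYS3, cystathionine gamma-lyase, fell by 2.18 ± 0.39, with day 22 values of 569 and 210.2 that differed by more than 2-fold. STR3, the enzyme that runs from cystathionine towards methionine, rose from 239, 270.0 and 328 to 557 and 571 (1.03 ± 0.17, adjusted p = 0.0012).

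Cell cycle genes fell in 11 of 35 cases and rose in 3. PCL1, a G1 cyclin, read 348, 323 and 258 in the chemostats and 86.6 and 45.9 at day 22 (−2.28 ± 0.35, adjusted p = 0.00083). YHP1, a repressor of early cell cycle genes, read 207, 212 and 201 against 64.2 and 52.1 (−1.84 ± 0.17, adjusted p = 4.8e-05). SWI5, the activator of late mitotic genes, fell from 99.7, 120.4 and 153 to 43.2 and 52.7 (−1.36 ± 0.23, adjusted p = 0.0015), and CLB5, an S phase cyclin, rose by 0.75 ± 0.15. Genes for separating daughter cells fell in 6 of 12 cases. SUN4, a wall protein of the septum, read 972, 991 and 963 against 361 and 237 (−1.74 ± 0.29, adjusted p = 0.0012), and EGT2 and AMN1 fell by 1.65 ± 0.22 and 1.54 ± 0.22. ASH1, the repressor that marks daughters, rose by 0.60 ± 0.20 (a call lost without chemostat replicate 1, chemostat replicate 2, chemostat replicate 3, day 22 replicate 1 or day 22 replicate 2, adjusted p up to 0.15). Falls of cell cycle genes numbered 7 without day 22 array 1, 5 without day 22 array 2, 6 with the deposited scaling and 1 with the actin covariate, and rises 1 without day 22 array 1, day 22 array 2, chemostat array 1, chemostat array 2 or chemostat array 3, 6 with the deposited scaling and 0 with the actin covariate. Falls of separation genes numbered 0 with the actin covariate.

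The large subunits of ribonucleotide reductase moved in opposite directions. RNR1, the major subunit, read 1188, 1269 and 1238 in the chemostats and 445 and 248 at day 22 (−1.89 ± 0.26, adjusted p = 0.00051), while RNR3 rose by 2.77 ± 0.23, as above. Of 44 replication genes 3 rose and 12 fell, among the falls the primase gene PRI1 (−0.81 ± 0.15). Falls of replication genes numbered 7 without day 22 array 1, 6 without day 22 array 2, 4 with the deposited scaling and 1 with the actin covariate, and rises 1 without day 22 array 2, 6 with the deposited scaling and 1 with the actin covariate. POL2, the catalytic subunit of a replicative polymerase, was called as a rise (0.42 ± 0.14) by the probe set used, the only 1 of its 9 with that sign, and its value with the probe sets averaged was −0.32 (a call lost without chemostat replicate 1, chemostat replicate 2, chemostat replicate 3, day 16 replicate 2, day 22 replicate 1 or day 22 replicate 2, adjusted p up to 0.17). Of 14 damage-response genes 5 rose and 1 fell, and rises numbered 3 without day 22 array 1 or day 22 array 2 and 1 with the actin covariate. RFX1, a repressor in that pathway, rose by 0.81 ± 0.16, and SML1, the inhibitor of ribonucleotide reductase, by 0.63 ± 0.15 (a call lost without day 22 replicate 1, adjusted p = 0.056). Of 5 histone genes HTB2 fell (−1.27 ± 0.22, adjusted p = 0.0017), HTB1 fell by 0.50 ± 0.16 (a call lost without chemostat replicate 1, chemostat replicate 2, chemostat replicate 3, day 22 replicate 1 or day 22 replicate 2, adjusted p up to 0.14), and HHO1, HTZ1 and CSE4 did not pass.

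On the cell surface FLO11, the adhesin of filaments and mats, fell from 1878, 1512 and 1841 to 297 and 217 (−2.77 ± 0.23, adjusted p = 2.2e-05). It had reached that range by day 2 (171 and 187). Of the other flocculin genes FLO1, FLO5 and FLO8 did not pass, and FLO10 rose by 0.93 ± 0.19 with only 2 of its 7 probe sets of that sign. Wall genes had 3 rises and 9 falls among 35, and falls numbered 4 without day 22 array 2 and 0 with the actin covariate and rises 1 without day 22 array 1 or chemostat array 2, 8 with the deposited scaling, 7 with quantile normalization and 1 with the actin covariate. UTR2, a chitin transglycosylase, read 208, 268 and 147 against 47.7 and 40.9 (−2.19 ± 0.28, adjusted p = 0.00028). The homologous wall proteins PIR3 and PIR1 went opposite ways: PIR3 read 777, 749 and 582 against 3328 and 2627 (2.08 ± 0.22, adjusted p = 0.00011), and PIR1 read 1523, 1706 and 1511 against 871 and 668 (−1.05 ± 0.16, adjusted p = 0.00089).

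Phosphate acquisition rose in 8 of 11 cases and fell in 0 (median 1.15). PHO84, the high-affinity phosphate transporter, read 133, 136 and 134 in the chemostats and 442 and 401 at day 22 (1.65 ± 0.16, adjusted p = 6.8e-05). GIT1 read 44.8, 39.8 and 67.2 against 331 and 353, and PHM6 and SPL2, both of the phosphate response, rose by 1.37 ± 0.27 and 1.32 ± 0.26. PHO4, the activator of these genes, fell from 349, 386 and 176 to 72.9 and 22.1 (−2.84 ± 0.61, adjusted p = 0.0047, a call lost without day 22 replicate 2, adjusted p = 0.076). Rises of acquisition genes numbered 2 with the actin covariate.

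Nitrogen catabolism had 4 rises and 4 falls among 25 genes, near the shares of all genes, and falls numbered 1 without day 22 array 2, 2 without chemostat array 1 or chemostat array 2, 1 with the deposited scaling and 0 with the actin covariate and rises 1 with the actin covariate. PUT1, proline oxidase, rose from 45.7, 37.8 and 64.5 to 185 and 159 (1.83 ± 0.25, adjusted p = 0.00043), DUR3, a permease of urea and polyamines, by 1.46 ± 0.20 and UGA4, a permease of gamma-aminobutyrate, by 1.54 ± 0.29, with 2 of 3 probe sets of that sign. GZF3 fell by 1.03 ± 0.20 and DAL80, a related repressor, rose by 0.96 ± 0.18. In the polyamine list TPO2 rose, from 72.5, 88.6 and 50.4 to 472 and 423, while TPO4, another exporter, fell by 0.76 ± 0.16 and SPE3, spermidine synthase, by 0.75 ± 0.16. SPE1, SPE2, SPE4, TPO1 and TPO5 did not pass. Among 39 genes of peroxisomes and fatty acid oxidation, 9 rose and 6 fell, near the shares of all genes, and rises numbered 4 without day 22 array 2, 15 with the deposited scaling and 1 with the actin covariate and falls 3 without day 22 array 1 and 2 with the actin covariate. CRC1, the carnitine carrier, read 47.6, 38.0 and 57.0 against 175 and 131 (1.69 ± 0.21, adjusted p = 0.00029), and FAA2, the peroxisomal acyl-CoA synthetase, read 161, 156 and 169 against 74.0 and 64.7 (−1.23 ± 0.14, adjusted p = 0.0002).

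The strain is labelled MATa, and its a cell genes were present. MFA1, a gene of a-factor, read 8178, 7448 and 10848 in the chemostats and 13150.5 and 7026 at day 22, and its groups overlapped. MFA1 and MFA2 did not pass (0.14 ± 0.29 and 0.51 ± 0.21), nor did the receptor STE2 (0.45 ± 0.16), AGA2 (0.56 ± 0.20) or BAR1 (−0.11 ± 0.23). ASG7 rose by 1.00 ± 0.20 and STE6, the exporter of a-factor, fell by 0.53 ± 0.17 (a call lost without chemostat replicate 1, chemostat replicate 2, chemostat replicate 3 or day 22 replicate 1, adjusted p up to 0.23).

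All 4 measured alpha cell genes rose. MF(ALPHA)1, the main gene of alpha-factor, read 159.7, 163 and 201 in the chemostats and 1575 and 1763 at day 22 (3.26 ± 0.21, adjusted p = 1e-05). MF(ALPHA)2, the minor one, was at or near the floor in the chemostats and read 61.9 and 51.9 at day 22 (2.08 ± 0.25, adjusted p = 0.00023). STE3, the a-factor receptor, read 71.4, 58.0 and 56.8 against 120.0 and 153 (1.14 ± 0.18, adjusted p = 0.00089), and SAG1, the alpha agglutinin, read 159, 147 and 158 against 335 and 342 (1.13 ± 0.16, adjusted p = 0.00057). All 4 were above the chemostats in both arrays, remained calls with each array left out in turn, and the 2 pheromone genes were also calls with the actin covariate. The probe set of the alpha2 regulator carries several genes and was left out. Mating pathway genes had 6 rises and 4 falls among 18, among them AGA1 (1.02 ± 0.21) and STE4 (−0.65 ± 0.15). Their rises numbered 3 without day 22 array 1 or chemostat array 2, 2 without day 22 array 2 and 0 with the actin covariate, and falls 2 without day 22 array 2, 1 without chemostat array 1 or chemostat array 2 and 0 with the deposited scaling or the actin covariate. Of 13 silencing genes 3 rose and 3 fell, near the shares of all genes, and rises numbered 1 without day 22 array 1 and 0 with the actin covariate and falls 1 without day 22 array 2, chemostat array 1 or chemostat array 2, 1 with the deposited scaling and 0 with the actin covariate. SIR2, a deacetylase of the silencing list, rose from 158, 141 and 224 to 346 and 351 (1.03 ± 0.20, limma adjusted p = 0.003). SIR3 fell by 0.66 ± 0.20, a call lost without chemostat replicate 1, chemostat replicate 2, day 22 replicate 1 or day 22 replicate 2.

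Sporulation genes, which a haploid does not normally use, had 9 rises and 2 falls among 34, and rises numbered 4 without day 22 array 2 and 2 with the actin covariate. SPS1, a kinase of spore wall formation, rose from 29.1, 22.1 and 22.6 to 94.6 and 86.1 (1.89 ± 0.18, adjusted p = 6.8e-05). SMK1, another such kinase, was at the floor in all 3 chemostats and read 34.5 and 36.2 (1.56 ± 0.15, adjusted p = 5.9e-05). The meiotic regulators IME1 (−0.16 ± 0.23) and UME6 (0.05 ± 0.25) did not pass.

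The largest rises over all genes were those of small non-coding RNAs, led by SNR14 and SNR45. Of 55 small nucleolar RNAs, which guide the modification of ribosomal RNA, 40 rose and 0 fell (median 1.50), and rises numbered 23 with the actin covariate. SNR45 read 16.7, 12 and 30.0 in the chemostats and 366 and 594 at day 22 (4.68 ± 0.35, adjusted p = 1.5e-05). SNR71 read 12, 15.9 and 14.4 against 242 and 359 (4.40 ± 0.30, adjusted p = 1e-05), and SNR128 read 40.9, 40.3 and 37.7 against 515 and 689.8 (3.91 ± 0.19, adjusted p = 1.8e-06). In all 3 the higher day 22 value was that of replicate 2. SNR3 was at the floor in every chemostat and read 116 and 104, at least 9.16-fold higher (adjusted p = 1.8e-05).

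All 4 measured spliceosomal RNAs rose, and rises numbered 2 with the actin covariate. SNR14, the U4 RNA, read 23.4, 27.5 and 77.1 in the chemostats and 1043 and 2081 at day 22 (5.32 ± 0.74, adjusted p = 0.00053). SNR7-L, the long form of U5, read 23.2, 27.8 and 57.6 against 505 and 559 (3.99 ± 0.45, adjusted p = 0.00017), SNR6, the U6 RNA, rose by 3.74 ± 0.66 and SNR19, the U1 RNA, by 1.29 ± 0.20. Chemostat replicate 3 was the highest chemostat for all 4. Of 88 transfer RNA genes 58 rose and 0 fell (median 0.95), against 13 with the actin covariate, and the largest of these rises was that of SUF6 (3.59 ± 0.58). As background, labelling for these arrays normally starts from cDNA primed with oligo-dT, which favours RNAs with a poly(A) tail, and most of these RNAs have none in their mature form.

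At the floor of 12 a level is only an upper limit. Of 106 genes at the floor in all 3 chemostats 39 passed, and of 71 at the floor in both day 22 arrays 7 passed. Against a group at the floor a gene can differ in 1 direction only, so the direction of these calls was fixed beforehand. Equal values at the floor also lower the estimate of spread behind the adjusted p-values of such genes, here and above. YKL183C-A, a protein-coding gene known by its systematic name, read 126 and 209 at day 22, at least 13.5-fold above the floor in the chemostats (adjusted p = 1.6e-05). GAT4, a GATA-type transcription factor, read 54.8 and 47.2, at least 4.24-fold higher (adjusted p = 1e-05), and YBR200W-A was at least 4.07-fold higher (adjusted p = 7.1e-05). In the other direction TOS2, a bud site protein, read 38.0, 48.0 and 49.0 in the chemostats, at least 3.72-fold above the floor at day 22 (adjusted p = 0.0028). AAR2 (a call lost without chemostat replicate 1, chemostat replicate 2, day 2 replicate 2, day 22 replicate 1 or day 22 replicate 2, adjusted p up to 0.15) and KRS1 (a call lost without chemostat replicate 1, chemostat replicate 2, day 22 replicate 1 or day 22 replicate 2, adjusted p up to 0.11) were at least 2.82-fold and 1.87-fold lower.

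The 2 day 22 arrays differed by more than 1 on the log2 scale for 55 of the 4656 genes with a mean of at least 50, and the median absolute difference was 0.200. For pairs of chemostats these counts were 11, 61 and 75 and the medians 0.132, 0.182 and 0.197. The 10 genes that differed most all were lower in replicate 2, the array of lowest actin ratio. HAC1, PHO4 and CYS3 were among them, as were ART5 (41.4 and 12), RGM1 (65.6 and 23.8) and PAC11 (33.1 and 12). The others were SLH1, with 3 of 8 probe sets of its sign, AQY2, RBH2 and YOR302W, the leader peptide of an arginine synthesis gene. YOR302W read 4165, 3564 and 2995 in the chemostats and 1714 and 441 at day 22. Except for RBH2, which did not pass (−0.79 ± 0.82), they count among the falls. The calls of HAC1, PHO4, RGM1, PAC11 and YOR302W were lost without day 22 replicate 2, with adjusted p between 0.066 and 0.21. SLH1 was a call lost without chemostat replicate 2 or day 22 replicate 2, adjusted p up to 0.23, and AQY2 was a call lost without chemostat replicate 1, chemostat replicate 2 or day 22 replicate 2, adjusted p up to 0.24.

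Compared directly with day 16, when the growth rate was 0.0011 per hour, no gene passed at day 22 in either direction (limma). At an unadjusted p under 0.05 there were 266 genes (4.75%) against day 16. With a floor of 50, 1 gene was higher, and without a filter on dim genes 2 were. This difference sets retentostat samples against each other, taken to be of the same 2 cultures although the fit has no term for culture. The chemostats enter this difference only through the estimate of spread. It shows no call at this number of arrays and does not show that the levels were equal.

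Against day 9 (0.0024 per hour), a comparison added after the data were seen, 31 genes were higher at day 22 (0.554%) and 17 lower (0.304%), while 923 (16.5%) had an unadjusted p under 0.05. With the replicate number as a block the counts were 42 and 42, and with the culture as a random block 43 and 28. With the deposited scaling they were 77 and 8, and with the actin ratio as a covariate 3 and 1. Of the lower genes ERG2, ERG3, ERG5, ERG11 and OLE1 serve lipid synthesis. With quantile normalization ERG2, ERG3 and ERG11 did not pass (limma adjusted p = 0.13, 0.23 and 0.097). With the deposited scaling ERG2, ERG3 and ERG5 did not pass (limma adjusted p = 0.052, 0.076 and 0.055). ERG5, a desaturase late in sterol synthesis, read 524 and 580.5 at day 9 and 273 and 282 at day 22, without overlap. OLE1, the fatty acid desaturase that uses oxygen, read 8355 and 5002 against 2499.7 and 2705, and DAN1 read 6024 and 4138 against 1803 and 1518. Higher than at day 9 were FBP1, with 179 and 126 then, FAA1, and HXT1, with 12 and 20.8 then. Of the 31 higher genes 13 were small nucleolar RNAs: SNR45 read 78.7 and 59.4 at day 9, and SNR128 148 and 126. GAT4 read 14.9 and 14.9 at day 9 against 54.8 and 47.2 at day 22. Without day 22 replicate 1 the counts were 7 and 0, without day 22 replicate 2 they were 4 and 0, without day 9 replicate 1 they were 65 and 11, and without day 9 replicate 2 they were 152 and 228. The chemostat arrays matter through the estimate of spread: without chemostat replicate 1 the counts were 20 and 7, and without chemostat replicate 2 they were 21 and 7. With any 1 array of day 2 or day 16 left out 9 genes were lower.

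**Figure D5:**
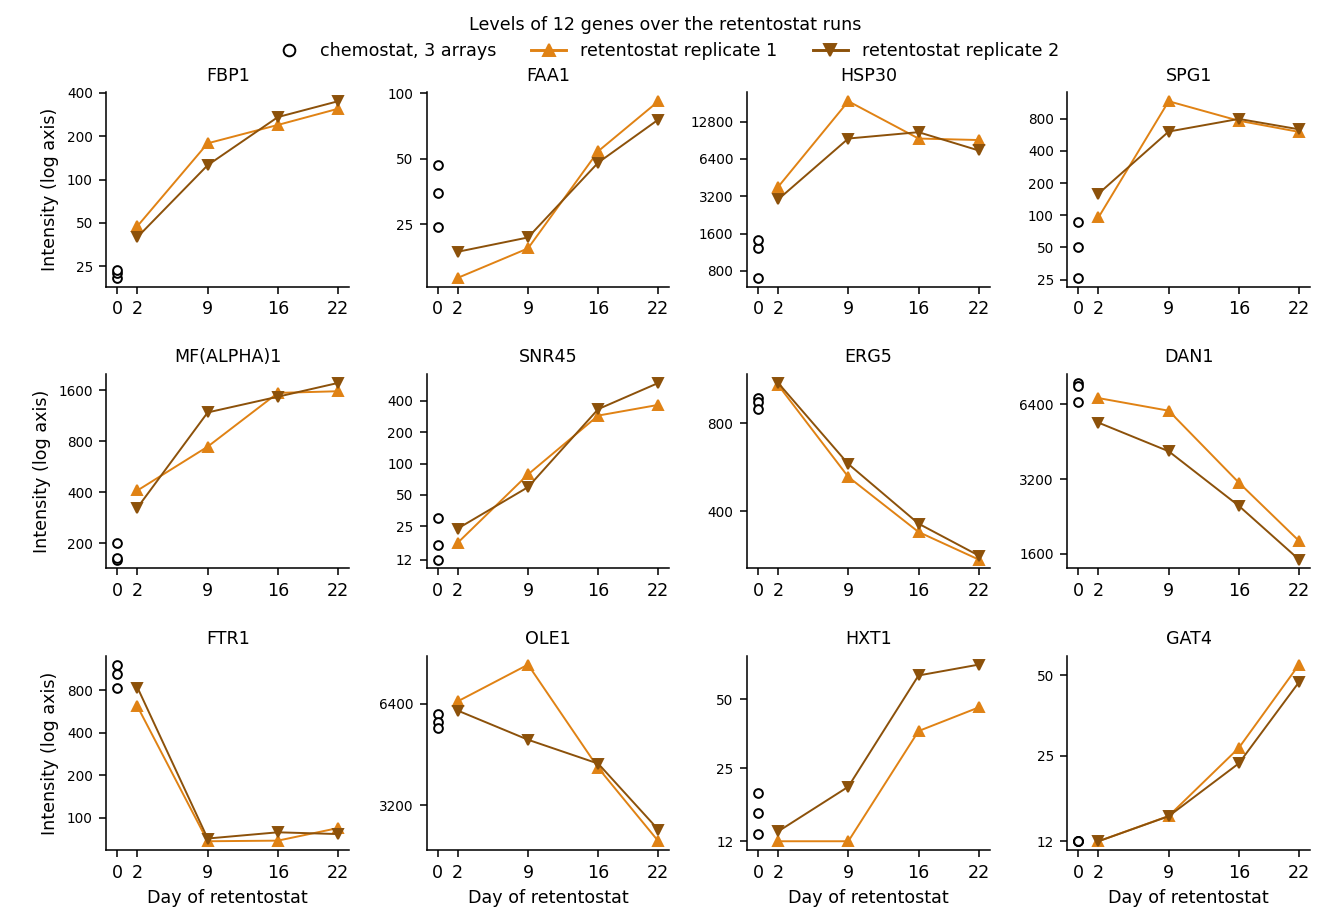
Median-scaled intensity on a log axis of 12 genes against days of retentostat culture; open circles at day 0 are the 3 chemostats, and the triangles joined by lines are the 2 retentostats at days 2, 9, 16 and 22. FBP1, SNR45 and GAT4 climb up to day 22, FTR1 is low from day 9 on, DAN1, ERG5 and OLE1 are lowest at day 22, and HSP30 and SPG1 are above the chemostats from day 2 on without a further rise after day 16.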

How the data were processed

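RNA of 3 chemostat and 8 retentostat samples was hybridised to YG-S98 arrays (Affymetrix). The deposited values are linear intensities, made by the authors with GCOS 1.2 per the submitters' processing notes, whose settings no source used here states. Among 9335 probe sets 60 were controls, 6504 had 1 gene, 328 had several and were left out, and 2443 had none. The brightest probe set stood for each of 5656 genes, named through the R64 annotation, which was used for names and biotypes only. Each array was scaled to 1 median over the genes, values under 12 were set to 12, and log2 was taken. Without the 61 genes that never exceeded the floor, 5595 were tested in R 4.3.3 with limma 3.58.1 (lmFit and eBayes, 1 mean for each of 5 groups, 11 arrays, 6 residual and 4.58 prior degrees of freedom). The code was tested on simulated data.

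Members, gene lists and tests were chosen with earlier results of these data known. Named by rule were the 15 largest rises and falls of nuclear protein-coding genes with a standard name and the 10 largest rises of non-coding RNAs. In each list at most 4 members that rose and 4 that fell were named. All of these had to have arrays that did not overlap between the groups. Also named were, for each group, at most 6 genes that stayed at its floor and the 10 genes that differed most between the day 22 arrays. A panel of regulators and small families was named too. FET3, ANB1, TIR1, MFA2, ERG2, ERG3, ERG5 and ERG11, 5 seripauperins, and YHB1, SUC2 and COX26 were added after their values were seen. The chemostats and the retentostat runs were treated as independent cultures, which the sample titles do not state. Retentostat arrays of 1 number were taken as 1 culture. Their deviations from the group means correlated between day 22 and days 2, 9 and 16 with r = 0.18, 0.13 and 0.40. Those of chemostat replicates 1 and 2 correlated with day 22 with r = 0.14 and −0.14. These values cannot decide which arrays share a culture. Alternatives were other scalings, floors, filters, probe set means, blocks, the actin ratio as a covariate and each array left out.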

Additional observations from a re-analysis of the deposited data

Results flagged for a closer look

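Probe sets without a gene name were outside all comparisons above. Of 2443, 1940 were above the floor somewhere and were tested beside the genes, and 463 (23.9%) were higher and 216 (11.1%) lower at day 22 than in the chemostats. Their median change was 0.11.

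Several named genes changed to a different extent at day 22 than at day 9, by the test of day 22 minus day 9. Both contrasts share the chemostats, whose levels do not enter this difference but whose arrays enter the estimate of spread. The difference was −1.59 for DAN1, −1.44 for PAU7, −1.31 for OLE1, −0.99 for ERG11, −0.999 for ERG2, −0.94 for ERG3 and −0.99 for ERG5. It was −2.03 for IZH4, −0.86 for IZH1, −1.92 for FAT3, −1.45 for INA1 and −1.08 for HYP2. On the other side it was 2.02 for FAA1, 1.14 for FBP1, 1.85 for HXT1, 1.77 for GAT4, 1.37 for MOR1, 1.08 for ZPS1, 0.94 for SMK1 and 1.94 for SCEI, the intron endonuclease of the mitochondrial chromosome. Among small nucleolar RNAs it was 2.77 for SNR45, 2.25 for SNR71, 2.13 for SNR128, 1.79 for SNR3, 1.61 for SNR5 and 1.41 for SNR9. Of these, GAT4, SCEI and SNR128 were still called with either day 22 array left out. ERG2, ERG3, IZH1, HYP2 and PAU7 were called neither with the deposited scaling nor with quantile normalization. No group held the 4 samples that a test for outlying samples needs.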

How the results depend on the processing

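Of the 299 named genes that passed, 90 lost the call with some single array left out, 208 with the actin ratio as a covariate, 100 without the 2 arrays of lowest actin ratio (an alternative chosen after seeing the data), 26 with the deposited scaling and 11 with the replicate number as a block. Chemostats were taken to share only a number with the retentostats, which the correlations of their deviations with day 22 (r = 0.14 and −0.14) cannot decide. With this replicate block 1025 genes were higher and 1116 lower. With the deposited scaling 1782 genes were higher and 605 lower, with the actin covariate 156 and 144 (300 in all), and without the 2 arrays of lowest actin ratio 472 and 498 (970 in all). With 1 array left out the counts ranged from 572 to 1168 higher, from 551 to 1273 lower and from 1123 to 2441 in all. Against day 16, 1 gene was higher with a floor of 50 and 2 without a filter on dim genes. Values changed sign for ALD3 with the actin covariate (−0.00647) and, with probe sets averaged, for FLO10 (−0.065) and POL2 (−0.32), and none of the 3 passed there. The cause was not tested. Signals near the floor limit what can be said of dim genes, and 2 arrays leave 1 degree of freedom of their own.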

Other observations

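The following genes were chosen after their values were seen and are given as a description. YHB1, the flavohaemoglobin that detoxifies nitric oxide, read 2786, 3019 and 2641 in the chemostats and 447 and 359.7 at day 22 (−2.81 ± 0.29, adjusted p = 0.0001). SUC2, invertase, read 2576, 2588 and 2112 against 485 and 366 (−2.52 ± 0.23, adjusted p = 4.1e-05), with 2 of 3 probe sets of that sign. In both genes all day 22 values were far below all chemostat values. COX26, a small protein of respiratory supercomplexes, rose from 237, 199 and 433 to 1214 and 1325 (2.21 ± 0.34, adjusted p = 0.00079).

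Among genes of the mitochondrial chromosome the calls were all rises, of genes dim or at the floor in the chemostats. Changes were above 0 for 7 of the 14 measured, with a median of 0.03, and 1 fell with the replicate block. Of 14 measured protein-coding genes there, a list added after the data were seen, 6 rose and 0 fell. COB, cytochrome b, read 16.6, 13.9 and 12 in the chemostats and 81.0 and 84.3 at day 22 (2.56 ± 0.21, adjusted p = 2.4e-05). COX3 read 28.6, 24.8 and 15.1 against 129 and 101 (2.37 ± 0.28, adjusted p = 0.00022), and ATP6 and COX2 rose by 1.79 ± 0.33 and 1.23 ± 0.32. These 4 were near the floor in the chemostats. COX1 and OLI1, which were not dim in the chemostats, did not pass (−0.40 ± 0.28 and −0.16 ± 0.37).

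Of 426 genes known only by a systematic name, 123 rose and 54 fell, a list also added after the data were seen. With the actin covariate 26 rose and 8 fell, and falls numbered 34 with the deposited scaling. RNase P RNA, which trims transfer RNAs, rose by 1.23.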
